A study of Macaca mulatta with 13 samples.

Results

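MiR-210 is a microRNA (miRNA) whose hairpin gives 2 mature products, miR-210-5p and miR-210-3p. Its members here are the rows of the deposited count table named miR-210 with or without an arm, which are these 2 of 909 named miRNAs. They were followed in 13 small RNA libraries of rhesus monkey (Macaca mulatta) thigh muscle, biopsied from the vastus lateralis. The Control group (5 libraries) had the control diet and the CR group (8 libraries) was on caloric restriction, and the series is titled for the prevention of sarcopenia, which is muscle loss in ageing. The labels give no age and do not say outright that each library came from another animal, so that the p-values speak only to how far these libraries vary.

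MiR-210 is known as the miRNA most regularly induced by low oxygen, through hypoxia-inducible factors that bind near its gene. In human cells it represses transcripts such as ISCU, a scaffold protein for iron-sulfur clusters that mitochondrial respiration needs, and EFNA3, an ephrin ligand in blood vessel growth. The 3p arm is the product usually studied, while the 5p arm is commonly treated as its passenger strand. In the RefSeq annotation of the T2T-MMU8v2.0 assembly, MIR210 lies within the long non-coding RNA gene LOC114672193, between the protein-coding genes RASSF7 and LOC114672194, with PHRF1 beyond the latter.

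Counts in named miRNAs totalled 1154326 to 5392611 in a library, of which 124 to 444 were miR-210 reads. All 6 skeletal muscle markers, among them miR-1-3p, miR-133a and miR-206, were found in all 13 libraries. Of the 2 neuronal markers, miR-124a-3p was at 0 in 9 of 13 libraries, while miR-9-5p was found in all 13 at 4 to 47 counts. Control replicate 4 stood apart, with a summed level of the muscle markers of 13532 CPM (counts scaled to a common library size, with TMM factors) against 39228 to 80945 in the others. It also held the highest sum of the 2 fibroblast markers, miR-199a and miR-214-3p, at 961 CPM against 192 to 722 in the others. Results are given with and without this library where it matters. In biopsies of mixed cells, fewer cells of a type and less RNA per cell cannot be told apart.

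Both arms of miR-210 were found in every library at a modest level, and the arm treated as the passenger was the more abundant of the pair on average. Among 263 miRNAs with enough counts to test, miR-210-5p ranked 124th by mean level (43.5 CPM) and miR-210-3p ranked 141st (27.0 CPM). Ligation and size selection can favour one sequence over another, so that a gap between the counts of different miRNAs or arms need not be a gap in molecules. Over all libraries 1892 reads fell on the 5p arm and 1186 on the 3p arm.

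MiR-210-3p varied moderately between libraries. In Control it stood at 31.2, 30.2, 12.04, 11.6 and 31.7 CPM in replicates 1 to 5. In CR it ran from 17.6 CPM (replicate 8) over a median of 29.7 to 46.7 CPM (replicate 3). Control replicates 3 and 4 were the lowest of all 13 libraries, CR replicate 3 was the highest, and the groups overlapped. This order depended on the scaling. Against library totals alone CR replicate 1 was highest (53 of 1154326 counts) and CR replicate 8 lowest (43 of 3905846). The group means were 23.3 ± 10.5 CPM (SD, n = 5) in Control and 29.3 ± 8.46 CPM (SD, n = 8) in CR, and 6 of 8 CR libraries lay above the Control mean.

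MiR-210-5p varied more widely, over a 10.05-fold range of TMM-scaled levels against 4.01-fold for the 3p arm. In Control it stood at 44.0, 68.6, 29.4, 9.80 and 19.99 CPM in replicates 1 to 5. In CR it ran from 16.2 CPM (replicate 3) over a median of 37.1 to 98.4 CPM (replicate 8). CR replicates 8 and 4 (96.7 CPM) were the highest of all 13 libraries, Control replicate 4 was the lowest, and the groups overlapped. This order depended on the scaling, with TMM factors of 0.624, 0.728 and 1.76 in these 3 libraries. Against library totals alone Control replicate 2 was highest (266 of 2855226 counts) and CR replicate 3 lowest (35 of 2727735). The group means were 34.3 ± 22.9 CPM (SD, n = 5) in Control and 49.2 ± 31.5 CPM (SD, n = 8) in CR, and 4 of 8 CR libraries lay above the Control mean.

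**Figure D1:**
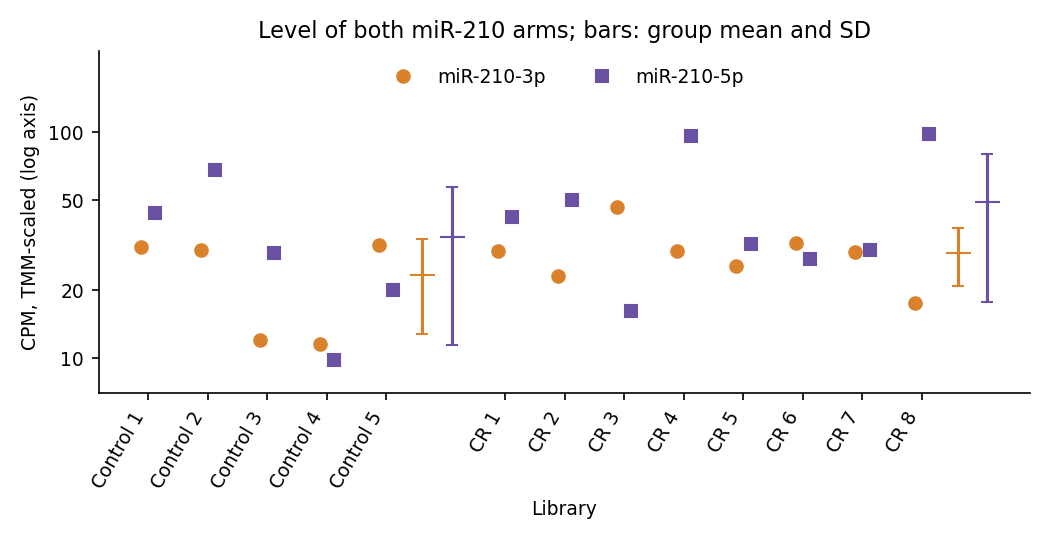
Level of miR-210-3p (circles) and miR-210-5p (squares) in each library, in TMM-scaled CPM on a log axis, with the mean and SD of each group beside its libraries. The 3p arm stays between 11.6 and 46.7 CPM, while the 5p arm spans 9.80 to 98.4 CPM, and neither arm separates CR from Control.

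The question the series asks of these libraries is whether the diets differ, and neither arm passed the test for that. The log2 fold change of CR against Control was 0.34 ± 0.32 (SE) for miR-210-3p, with a 95% interval from -0.33 to 1.01. For miR-210-5p it was 0.52 ± 0.47 (SE), with an interval from -0.46 to 1.502. Both intervals include no change as well as a doubling. EdgeR (quasi-likelihood test) gave each arm an adjusted p of 0.985, by Benjamini-Hochberg over 263 miRNAs. In that test 0 of 263 miRNAs passed (0%), and 7 had an unadjusted p under 0.05 (3 higher and 4 lower in CR). DESeq2 and limma-voom also gave 7 each, with 0 passing, but the directions differed. They were 4 higher and 3 lower with DESeq2, and 6 higher and 1 lower with limma-voom. Without Control replicate 4, which held the lowest TMM-scaled level of either arm, the log2 fold changes were 0.16 and 0.28. That of the 5p arm was 0.95 with Control replicate 2 left out, and was 0.23, 0.31 and 0.34 with CR replicate 8, CR replicate 4 and Control replicate 5 left out in turn. That of the 3p arm was 0.18 and 0.21 without Control replicate 3 and CR replicate 3.

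As a share of all miRNA counts, which uses no scaling factor, both arms together made up a tiny part of each library. The share in Control was 0.00595%, 0.0134%, 0.00442%, 0.00377% and 0.00478% in replicates 1 to 5. In CR it ran from 0.00449% (replicate 6) over a median of 0.00691% to 0.0111% (replicate 1). Control replicate 2 was the highest of all libraries (95% exact binomial interval 0.0121 to 0.0148%), and no CR library lay outside the Control range. The upper end of that range rested on Control replicate 2 alone, as the other Control libraries held 0.00377 to 0.00595%, below the CR median. Intervals of this kind cover counting error only, since copies of a read made by PCR are not independent molecules. The mean share was 0.00647% ± 0.00396 (SD, n = 5) in Control and 0.00723% ± 0.00222 (SD, n = 8) in CR, a difference of 0.000761 percentage points (two-sided exact permutation test, p = 0.663). Without Control replicate 2 the difference was 0.00250 points (exact permutation p 0.0545), and without Control replicate 4 it was 0.0000875 points. With miR-486 left out of the total, the mean shares over all 13 libraries were 0.0145% in Control and 0.0183% in CR (exact permutation p 0.378).

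The balance of the arms differed strongly from library to library. In Control the 3p arm held 41.5%, 30.5%, 29.1%, 54.3% and 61.3% of miR-210 reads in replicates 1 to 5. In CR its share ran from 15.2% (replicate 8; 95% exact binomial interval 11.2 to 19.9%) over a median of 42.9% to 74.3% (replicate 3; 66.1 to 81.4%). CR replicate 8 thus held 5.58 reads of the 5p arm for each read of the 3p arm, and CR replicate 3 held 2.89 reads of the 3p arm for each read of the 5p arm. The 5p arm was ahead in 9 libraries (3 of Control and 6 of CR) and the 3p arm in 4. The interval lay wholly below 50% in 6 libraries and wholly above it in 2 (Control replicate 5 and CR replicate 3). In 10 of 13 libraries the interval left out the pooled share of 38.5%, so that these shares differed by more than counting error.

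**Figure D2:**
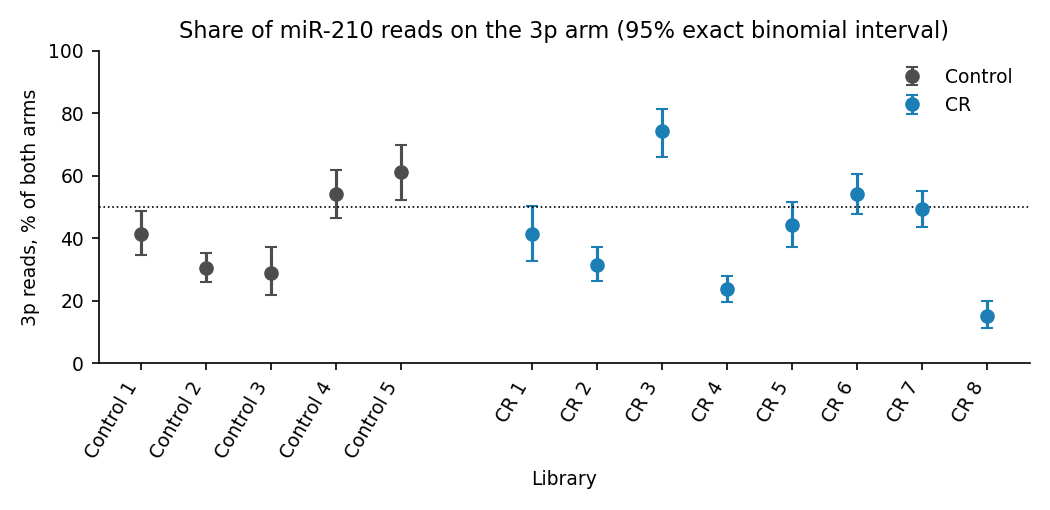
Percent of miR-210 reads that fall on the 3p arm in each library, with 95% exact binomial intervals and a dotted line at equal shares. Shares run from 15.2% in CR replicate 8 to 74.3% in CR replicate 3, and Control libraries lie between 29.1% and 61.3%.

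This balance did not separate the diets. The log2 ratio of 3p to 5p reads, with 0.5 added to each count, averaged -0.41 ± 0.86 (SD, n = 5) in Control and -0.55 ± 1.22 (SD, n = 8) in CR. The difference of -0.14 was well within the spread (two-sided exact permutation test, p = 0.837, where the smallest p the design allows is 0.000777). It changed sign when single libraries were left out, to 0.0273 (Control replicate 4 out), 0.13 (Control replicate 5 out), 0.0260 (CR replicate 4 out) and 0.14 (CR replicate 8 out), and it was -0.43 without CR replicate 3. In the CR group 3 of 8 libraries lay outside the Control range, on either side of it.

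MiR-210 was set beside the other 52 miRNAs for which both arms could be tested, as a description with no test. Its log2 arm ratio had a standard deviation of 1.06 over 13 libraries, the highest of the 53, where the other 52 ran from 0.0756 to 0.95 with a median of 0.48. Counting error alone accounts for an SD of 0.22 in miR-210, leaving 1.04, against at most 0.78 in the others. Of 20 other pairs whose lesser arm averaged at least 50 counts (a limit set after seeing the data), none had an SD above 0.67. The lesser arm of miR-210 averaged 91.2 counts. Part of this spread rested on the outermost libraries: the SD was 0.92 without CR replicate 8, 0.91 without CR replicate 3 and 0.74 without both, where it ranked 2nd, 3rd and 7th of 53. In most miRNAs one arm was far ahead, with a median distance of 4.49 on the log2 scale between the arms of the other 52. The mean log2 ratio of miR-210 was -0.49. The arm that was ahead changed from library to library in miR-210 and in 7 of the other 52.

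**Figure D3:**
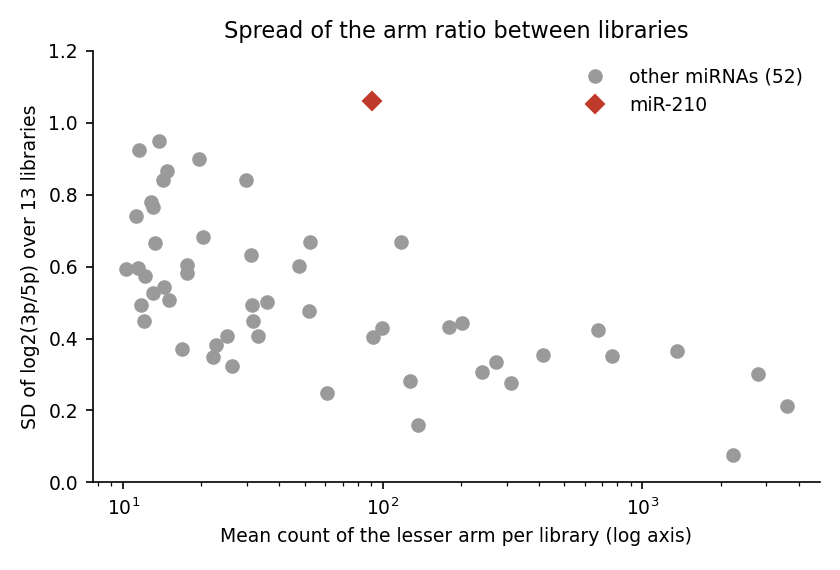
Standard deviation of the log2 ratio of 3p to 5p counts over 13 libraries, against the mean count of the lesser arm on a log axis, for 53 miRNAs with both arms tested. MiR-210 (diamond) stands at 1.06 with a lesser arm of 91.2 counts, and the other 52 lie between 0.0756 and 0.95.

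The arms of miR-210, which are cut from one precursor, had no detectable correlation across libraries. Pearson's r of their log2 CPM was 0.12 and Spearman's rho -0.15 over 13 libraries, with permutation p of 0.706 and 0.614 (100000 resamples; 0.829 and 0.789 after Benjamini-Hochberg adjustment over 27 relations). With levels scaled to library totals alone r was 0.0168. In TMM-scaled levels the sign of r rested on Control replicate 4, the lowest library for both arms by that scaling, and r was -0.32 without it. Without Control replicate 4 and CR replicate 8, the libraries farthest from the median of the 5p arm, r was -0.16. Within the 8 CR libraries, a grouping chosen after seeing the data, r was -0.74 and rho -0.69. Their exact permutation p was 0.0313 and 0.0694, and that of r adjusted over 27 relations was 0.282. Among these 8, CR replicate 3 was highest for the 3p arm and lowest for the 5p arm (46.7 and 16.2 CPM). CR replicate 8 was the reverse (17.6 and 98.4 CPM), and r without these 2 was not computed. The 5 Control libraries are too few for a value of their own. For the other 52 miRNAs r between the arms ran from -0.23 to 0.96 with a median of 0.60, and 9 of them had a lower r than miR-210.

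Relations were then computed between each arm and miRNAs of muscle, blood and the vessel wall. Of 13 listed partners 12 passed the filter on low counts; miR-144, a red blood cell miRNA with at most 8 counts in a library, did not. With the log10 library total as a check of depth and the relation between the arms, this made 27 relations. Of these 2 passed an adjusted p of 0.05, both for the 5p arm and both negative, while 0 passed for the 3p arm. By unadjusted p under 0.05 there were 6, 1 of them for the 3p arm. The labels name no batch of extraction or sequencing within which the relations could be repeated. All levels of a library share its scaling factor.

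MiR-210-5p had lower levels in libraries with more of the myeloid miR-223 and the endothelial miR-126, and these were the 2 relations that passed. With miR-223, a miRNA of neutrophils and other myeloid cells, r was -0.82 and rho -0.87 (permutation p 0.00066 and 0.00015; adjusted over 27 relations 0.0154 and 0.00405). MiR-223 ran from 0.562 CPM (CR replicate 1) over a median of 4.13 to 11.6 CPM (Control replicate 4). These are low levels, of 1 to 95 counts in a library. CR replicates 4 and 8, highest for miR-210-5p, held 1.43 and 1.23 CPM of miR-223. Without CR replicates 1 and 8, the libraries farthest from the median of miR-223, r was -0.92 (adjusted permutation p 0.00351). Leaving out single libraries moved r between -0.94 and -0.78 with an adjusted permutation p of at most 0.0455, and within the 8 CR libraries r was -0.71 (exact permutation p 0.0546, adjusted over 27 relations 0.368).

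With miR-126, the miRNA of endothelial cells (listed with no arm), r was -0.80 and rho -0.81 (permutation p 0.00114 and 0.00116; adjusted over 27 relations 0.0154 and 0.0157). MiR-126 ran from 66.4 CPM (CR replicate 8) over a median of 124.9 to 219 CPM (Control replicate 5). CR replicates 8 and 4 and Control replicate 2, the highest for the 5p arm, were the lowest for miR-126. With levels scaled to library totals alone r was -0.48 and the relation no longer passed (adjusted permutation p 0.304). Without Control replicate 5 and CR replicate 8, the libraries farthest from its median, r was -0.78 and the adjusted permutation p 0.0525. Without Control replicate 2 or CR replicate 8 alone, r was -0.78 and -0.74 and the adjusted permutation p 0.0514 and 0.0515. Within the 8 CR libraries r was -0.89 (exact permutation p 0.00345, adjusted over 27 relations 0.0931).

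**Figure D4:**
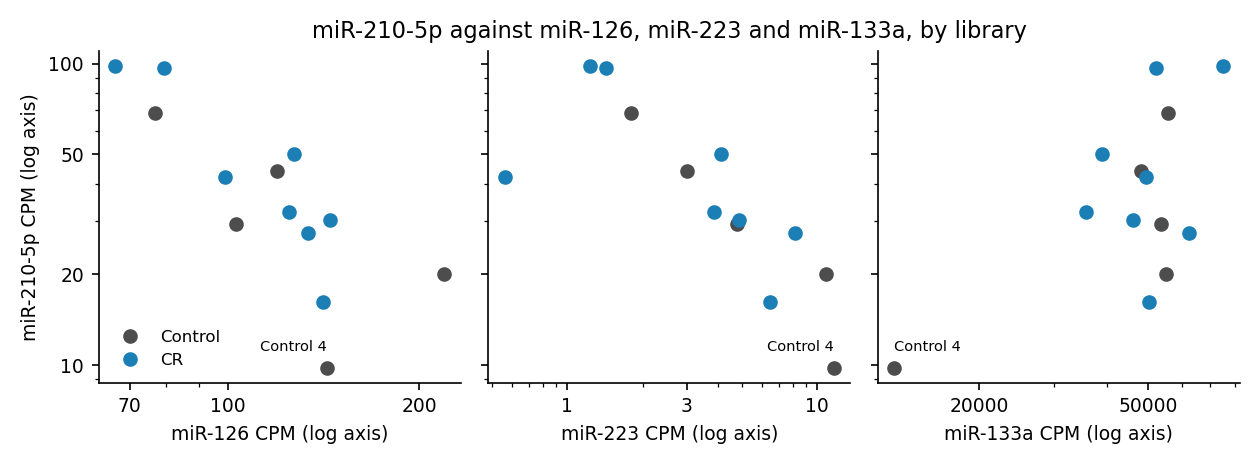
Level of miR-210-5p against that of the endothelial miR-126, the myeloid miR-223 and the muscle miR-133a in each library, all in TMM-scaled CPM on log axes, with Control and CR libraries in separate colours. The points fall from upper left to lower right in the miR-126 (r -0.80) and miR-223 (r -0.82) panels. In the miR-133a panel (r 0.61) Control replicate 4 lies far from the other libraries.

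Other blood and vessel miRNAs had negative values with the 5p arm that did not pass. They were miR-143-3p of smooth muscle (r -0.68, rho -0.65; permutation p 0.0107 and 0.0194, adjusted 0.0965 and 0.160) and miR-451 of red blood cells (r -0.56, rho -0.63; permutation p 0.0486 and 0.0237, adjusted 0.204 and 0.160). Without the 2 farthest libraries their r was -0.74 (Control replicate 2 and CR replicate 5 out) and -0.27 (Control replicate 2 and CR replicate 8 out). The relation with miR-143-3p passed with library totals that leave out miR-486 (r -0.74, adjusted permutation p 0.0392). That with miR-451 passed with library totals alone (r -0.76, adjusted permutation p 0.0279). Each passed without 1 library as well, at r -0.76 for miR-143-3p without CR replicate 5 and r -0.75 for miR-451 without CR replicate 4 (adjusted permutation p 0.0426 and 0.0448). Further markers were added after seeing these values, as 14 relations of which 0 passed and 2 had an unadjusted p of r under 0.05. Both of these were with the 5p arm. The smooth muscle marker miR-145-5p had r -0.58 and rho -0.48 with it (permutation p 0.0382 and 0.0968, adjusted over 14 relations 0.268 and 0.262). The leukocyte marker miR-142-5p had r -0.61 and rho -0.64 with the 5p arm (permutation p 0.0275 and 0.0211, adjusted over 14 relations 0.268 and 0.148). The lymphocyte marker miR-150-5p had r 0.12 and rho 0.38 (permutation p 0.695 and 0.194, adjusted 0.811 and 0.302), so that leukocyte markers did not share one direction. The fibroblast markers miR-199a and miR-214-3p had r -0.42 and -0.52 with the 3p arm (adjusted permutation p 0.405 and 0.292), and -0.00526 and -0.26 without the 2 farthest libraries. Their rho with the 3p arm was -0.54 and -0.64 (permutation p 0.0610 and 0.0206, adjusted over 14 relations 0.262 and 0.148). With the 5p arm their r was -0.22 and -0.0748. The liver marker miR-122a-5p had r -0.40 with the 5p arm and 0.38 with the 3p arm (adjusted permutation p 0.405 each). Without the 2 farthest libraries these were -0.11 and 0.11. The neuronal marker miR-9-5p had r 0.20 with the 5p arm and -0.0142 with the 3p arm.

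The amounts of these marker miRNAs overlapped between the diets. Summed over the 4 leukocyte markers they ran from 281 to 604 CPM in Control and from 192 to 693 CPM in CR, with miR-142-3p at 0 in 5 libraries. Most of this sum was miR-150-5p, at 188 to 677 CPM over all libraries, where miR-142-5p held 2.32 to 37.4 CPM. MiR-223 ran from 1.80 to 11.6 CPM in Control and from 0.562 to 8.17 CPM in CR. The endothelial marker ran from 76.8 to 219 CPM and from 66.4 to 145 CPM, and the 2 smooth muscle markers from 10981 to 42288 CPM and from 13389 to 45611 CPM. The 2 red blood cell markers ran from 138 to 1386 CPM and from 135 to 1510 CPM, with miR-144 at 0 in 2 libraries. Their part in the level of miR-210-5p was not tested.

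For miR-210-3p none of the relations with these vessel and blood miRNAs passed. Its r was -0.12 with miR-223, 0.19 with miR-126, 0.0783 with miR-143-3p and 0.26 with miR-451, with adjusted permutation p from 0.552 to 0.866. Among the added markers its r was -0.50 with miR-150-5p, -0.27 with miR-145-5p and 0.20 with miR-142-5p (adjusted permutation p over 14 relations 0.292, 0.646 and 0.674). Without the 2 farthest libraries these were -0.63, -0.0135 and 0.48. With miR-451 rho was 0.61 (permutation p 0.0308, adjusted over 27 relations 0.166), against -0.63 for the 5p arm. Within the 8 CR libraries the 3p arm had r 0.79 and rho 0.83 with miR-451 (exact permutation p 0.0145 and 0.0154; that of r adjusted over 27 relations 0.195). There its r was 0.59 with miR-126, 0.44 with miR-223 and 0.24 with miR-143-3p. The difference between the arms was examined through the log2 ratio of 5p to 3p reads, which needs no scaling factor, in 12 relations added after seeing the data. The ratio had r -0.83 and rho -0.88 with miR-126 (permutation p 0.00066 and 0.00016; adjusted over 12 relations 0.00792 and 0.00192), and leaving out single libraries moved r between -0.89 and -0.76. With miR-223, miR-143-3p and miR-451 r was -0.68, -0.66 and -0.65, and the adjusted permutation p was 0.0499 for each. These 4 of 12 passed, with the adjustment made among these 12 only and with partners already seen beside the 5p arm. The log2 ratio of 3p to 5p reads had r -0.84 with the 5p level itself. The relations of the ratio are thus no separate support for those of the 5p arm. With partner levels scaled to library totals that with miR-451 passed (r -0.74, adjusted permutation p 0.0446), and those with miR-126, miR-223 and miR-143-3p did not (r -0.66, -0.66 and -0.61; adjusted permutation p 0.0578, 0.0578 and 0.0783). Without the 2 farthest libraries that with miR-451 did not pass (r -0.44, adjusted permutation p 0.302), while those with miR-126, miR-223 and miR-143-3p did (0.0328 each).

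**Figure D5:**
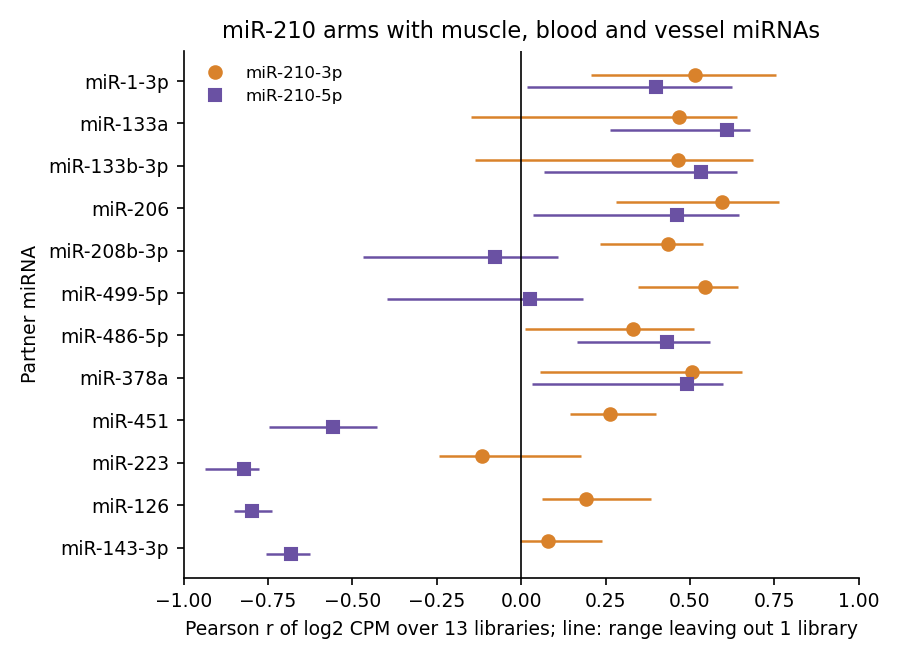
Pearson's r over 13 libraries between each miR-210 arm and 12 partner miRNAs, with a line for the range of r when 1 library is left out. The 5p arm (squares) lies between -0.82 and -0.56 for miR-451, miR-223, miR-126 and miR-143-3p, where the 3p arm (circles) lies between -0.12 and 0.26.

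With muscle miRNAs both arms had mostly positive values, and none passed with all 13 libraries. For the 3p arm r ran from 0.33 (miR-486-5p) to 0.59 (miR-206, a miRNA of regenerating muscle; rho 0.26, permutation p 0.0352 and 0.390, adjusted 0.190 and 0.687) over the 8 muscle partners. For the 5p arm it ran from -0.0773 (the slow-fibre miRNA miR-208b-3p) to 0.61 (miR-133a, a miRNA of muscle differentiation; rho 0.26, permutation p 0.0216 and 0.383, adjusted 0.146 and 0.687). Without CR replicate 8 the relation of the 3p arm with miR-206 passed (r 0.76, adjusted permutation p 0.0454). Several of these values rested on Control replicate 4, the lowest library for the muscle markers. Without it r of the 3p arm was 0.28 with miR-206, 0.21 with miR-1-3p and -0.15 with miR-133a, and r of the 5p arm was 0.26 with miR-133a and 0.0347 with miR-206. Without that library the highest of the 8 muscle values with the 3p arm was that of the slow-fibre miRNA miR-499-5p, at 0.34 (0.54 with all 13). Depth had r -0.24 with the 3p arm and -0.00655 with the 5p arm (adjusted permutation p 0.554 and 0.983).

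The miRNAs whose pattern over the 13 libraries was most like each arm were also taken, among 176 others with a mean of at least 10 CPM. For miR-210-5p they were miR-504-5p (r 0.83), miR-193b-3p (0.81), miR-1271-5p (0.76), miR-885-5p (0.76) and miR-365-3p (0.75). MiR-193b and miR-365 are known to be encoded side by side. Without Control replicate 4 the 5 values ran from 0.62 to 0.74. For miR-210-3p they were miR-30c-2-3p (r 0.75), let-7g-5p (0.70), miR-1180-3p (0.66), miR-378d (0.63) and miR-181b-5p (0.63), and without Control replicate 4 from 0.33 to 0.62. The lowest values with the 5p arm were those of miR-221-3p (-0.83), miR-126 (-0.80) and miR-195-5p (-0.76), which were -0.76, -0.85 and -0.61 without Control replicate 4. MiR-221-3p was thus lower than miR-126, and miR-223, with a mean under 10 CPM, was not among the 176. The lowest values with the 3p arm were those of miR-432-5p (-0.70), miR-222-3p (-0.68) and miR-204-5p (-0.66), which were -0.49, -0.51 and -0.51 without Control replicate 4. The lists of 5 for the 2 arms had no miRNA in common. Over the 176 miRNAs, r with the 5p arm was at least 0.6 in size for 26 (14.8%), and r with the 3p arm for 13 (7.39%). These values are extremes of many and describe these libraries, in which all levels share depth and scaling.

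None of the other miRNAs tied to hypoxia in cultured cells passed the test between the diets. Of 22 listed, miR-210 included, 18 could be tested, and 0 passed in either direction by edgeR (0 at an unadjusted p under 0.05, and 0 passing by DESeq2 or limma-voom). The 4 others, miR-424-5p, miR-373, miR-429-3p and miR-20b-5p, had at most 16 counts over all libraries. Of the 16 tested beside miR-210, 7 were fitted higher and 9 lower in CR, where 136 of all 263 miRNAs were fitted higher and 127 lower. The median log2 fold change of the 16 was -0.0148, and that over all 263 miRNAs was 0.0103. The near-even split of the hypoxia miRNAs depended on the scaling and the libraries. With miR-210 included, 9 of the 18 were fitted higher and 9 lower (median 0.0459), where library totals alone gave 3 higher and 15 lower (median -0.17, against -0.26 over all 263). The replicate block gave 13 higher and 5 lower, as did leaving out Control replicate 5 or CR replicate 4. The median over all tested miRNAs was 0.0864, 0.00430 and 0.0196 in these 3 settings in turn. The smallest unadjusted p values belonged to miR-27a-3p, at 0.41 ± 0.25 (log2 fold change and its SE), and miR-195-5p, of the cell-cycle family of miR-15 and miR-16, at -0.47 ± 0.29. Next came miR-199a, known from rat heart cells to repress HIF1A, with -0.45 ± 0.32, and, after both miR-210 arms, miR-23a-3p, a cluster mate of miR-27a, with 0.20 ± 0.22. EdgeR gave each an adjusted p of 0.985. Without Control replicate 4 the values of miR-195-5p and miR-199a were -0.16 and -0.13. Those of miR-27a-3p and miR-23a-3p were 0.16 and 0.00731 without CR replicate 1. That of miR-199a was -0.68 without Control replicate 5, and with library totals alone that of miR-23a-3p was -0.0306.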

How the data were processed

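The authors deposited a table of counts for each miRNA in each library. Its values are whole numbers and were taken here as raw read counts. Trizol RNA was size-selected on a gel before library preparation with the TruSeq small RNA kit and single-end sequencing, per the labels' protocols. The submitters' processing notes name the build Mmul_8.0.1. The aligner, the counter and the division of reads shared between miRNAs are, in the sources used here, not given.

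Of 1703 rows, 1001 carry a miRNA name. For each name the row of highest total was used, 702 predicted loci were left out, and 3 pairs of names with nearly the same counts (within 1%) were merged, which left 909 miRNAs. MiR-210 has 2 rows and no second copy. The test was that of edgeR 4.0.16 under R 4.3.3 (robust quasi-likelihood fit, TMM, filterByExpr, which kept 263 miRNAs); alternatives used DESeq2 1.42.0 and limma 3.58.1. TMM factors ran from 0.624 to 1.76, and log2 CPM used a prior count of 2. Correlations used 100000 resamples, and shares and ratios exact permutation of the group labels. A count of 0 allows 3 counts, or 0.556 to 2.60 CPM before scaling. Libraries of a group differed far beyond counting noise (chi-square over its degrees of freedom at least 149). The fitting script was tested on simulated data.

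The miRNA and the lists were chosen with earlier results of these data known. Named miRNAs are both arms, the partners, the 6 hypoxia miRNAs of smallest p, and the 5 most and 3 least alike (3p arm) or 5 most alike (5p arm). The 3 least alike for the 5p arm were named as well, outside this rule. Markers named from the 14 added relations were chosen after their values were seen.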

Additional observations from a re-analysis of the deposited data

Results flagged for a closer look

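In 3 of 32 groups of libraries examined for an outlying value (4 measures of miR-210 and 12 partner miRNAs, in each diet), 1 library lay apart from the rest by a Dixon gap test; chance alone flags about 1 group in 20. The share of counts in miR-210 was 0.0134% in Control replicate 2, where the other 4 Control libraries held 0.00377 to 0.00595%. The level of miR-133a was 12644 CPM in Control replicate 4, where the other 4 held 48173 to 55768 CPM. The level of miR-208b-3p was 53.4 CPM in CR replicate 1, where the other 7 held 0.571 to 13.3 CPM.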

How the results depend on the processing

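The fold changes of both miR-210 arms kept their sign and stayed short of the threshold under all 22 alternatives (other tools, scalings, filters, summed rows, a covariate, a block and single libraries left out). For miR-210-3p they ran from 0.13 (library totals alone) to 0.49, and for miR-210-5p from 0.18 (library totals alone) to 0.95. No miRNA passed under any of them. The share of counts kept its sign in 15 of 15 alternatives, over single libraries from 0.0000875 to 0.00250 points. The arm ratio difference ran from -0.43 to 0.14 over single libraries left out. The replicate numbers of the labels did not pair the libraries: the correlation of same-numbered libraries' deviations ran from -0.24 to -0.0474, and 0 of 5 Control libraries were most like the CR library of their own number. With the replicate number as a block the fold changes were 0.49 (3p) and 0.42 (5p), and the arm ratio difference within 5 pairs was -0.0117. With library totals alone the median over all 263 fold changes fell to -0.26 (log2), from 0.0103.

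The relation between the arms ran from -0.32 to 0.34 over single libraries left out, was -0.16 without the 2 farthest libraries and -0.74 in CR libraries alone. Among CR libraries, replicates 3 and 8 held the extremes of both arms. Of the 27 relations 1 passed without the 2 farthest libraries, and 1 to 3 over single libraries left out. Without the 2 farthest libraries the 3p arm had r -0.24 with miR-133b-3p and -0.0503 with miR-126, and the 5p arm -0.37 with miR-1-3p, -0.0709 with miR-133a, -0.0214 with miR-133b-3p, -0.45 with miR-499-5p, -0.0837 with miR-486-5p and 0.168 with depth. With library totals alone r was -0.43 (3p with miR-486-5p), 0.0204 (3p with miR-223) and 0.0819 (5p with miR-208b-3p). It was -0.0444 for the 3p arm with miR-143-3p when totals left out miR-486, 0.00365 for the 3p arm with miR-223 after subtracting group means, and -0.27 for miR-499-5p with the 5p/3p ratio. Over single libraries left out, r of the 3p arm ran from -0.15 to 0.64 (miR-133a), -0.14 to 0.69 (miR-133b-3p), -0.24 to 0.18 (miR-223) and -0.00492 to 0.24 (miR-143-3p). That of the 5p arm ran from -0.47 to 0.11 (miR-208b-3p), -0.40 to 0.18 (miR-499-5p) and -0.15 to 0.17 (depth). Of the 18 tested miRNAs tied to hypoxia (21 with no filter on low counts), 3 to 13 were fitted higher in CR across the alternatives (9 as reported). Across the same alternatives the median log2 fold change over all tested miRNAs ran from -0.26 to 0.0864. Of the hypoxia miRNAs 1 had an unadjusted p under 0.05 without Control replicate 2 and with the sample number as a covariate. MiR-23a-3p changed to -0.0306 with library totals alone. The causes of these shifts were not tested. With 43 to 158 reads of the 3p arm and 35 to 339 of the 5p arm in a library, counting error is small beside the spread between libraries.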
